A study of Mus musculus with 2 samples.

Results

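Ly6d-negative common lymphoid progenitors are bone marrow cells that carry the Flt3 and Dntt transcripts of early lymphoid cells and no detected Ly6d transcript. They were taken from 2 single-cell libraries of mouse bone marrow by a rule on raw counts of unique molecular identifiers (UMIs). A barcode was a member with at least 1000 genes, at most 10% of its UMIs from mitochondrially encoded genes, at least 1 Flt3 UMI, at least 3 Dntt UMIs, no Ly6d UMI and at most 1 UMI each of Ebf1, Siglech and Cd79a. In all 586 of 7633 barcodes that met the limits on genes and mitochondrial UMIs were members, 354 of 4343 in the knockout library (KO) and 232 of 3290 in the wild-type library (WT). The cells that met every other condition and held at least 1 Ly6d UMI, 253 in KO and 231 in WT, are called Ly6d-positive below. The cells were chosen by the raw UMIs of these 6 genes, so the levels of those genes are given as a description only.

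KO cells came from LCR1-/- animals and WT cells from LCR1+/+ animals, all of the C57BL/6 strain and between 8 and 12 weeks old. For each genotype, bone marrow from an equal number of male and female mice was pooled, and viable, CD45-positive, lineage-negative, CD127-positive cells were sorted, with a stated purity above 90%. The question behind the design was how group 2 innate lymphoid cells (ILC2) develop when LCR1 is deleted. LCR1 is a locus whose position the labels do not give, and no gene of that name was measured, so the deletion could not be checked in these counts. Each genotype had 1 library, so there was no replicate check, no test was run, and every interval below covers counting error only, for UMIs of these cells. A difference between the libraries cannot be told apart from a difference between pools, sorts or sequencing runs. The sort used CD127, the interleukin-7 receptor alpha chain, so Il7r is no marker independent of the sort.

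Common lymphoid progenitors arise from multipotent progenitors that have begun to express the receptor tyrosine kinase Flt3 and the interleukin-7 receptor. Before Ly6d, a surface protein of the Ly6 family, appears, they can still give rise to B cells, T cells, natural killer cells, innate lymphoid cells and dendritic cells, and this stage is known as the all-lymphoid progenitor. Ly6d marks the progenitors that are biased towards the B lineage, which then turn on Ebf1 and Pax5. Dntt encodes terminal deoxynucleotidyl transferase, which adds bases at the joints of rearranging antigen receptor genes.

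Over all barcodes the libraries held 52137780 UMIs in 8476 KO barcodes and 47883132 UMIs in 20293 WT barcodes. The members held 6175656 UMIs in KO and 3285265 in WT, and the Ly6d-positive cells 4378432 and 3440447. The median member had 16208.5 UMIs and 4025 genes in KO and 10779.5 UMIs and 3326 genes in WT. Under 5000 UMIs fell 7 KO members and 90 WT members (38.8%), and these 90 cells held 7.84% of the WT sum. A median of 4.94% of UMIs was mitochondrial in KO members and 4.65% in WT members. Xist without Y-linked UMIs was found in 35.9% of KO and 53.9% of WT members, and Y-linked without Xist UMIs in 48.9% of KO and 21.1% of WT members. WT members of the first kind had a median of 7899 UMIs and of the second 14796, while in KO the order was the opposite, with 18566 and 14902. The part of depth in these shares was not tested. The libraries shared 75 barcodes, and no barcode was a member in both. Levels are the UMIs of a gene per 1000000 UMIs of the class (counts per 1000000, CPM), and the part of sequencing depth, sex and cell number in the differences between libraries was not tested beyond the alternatives named beside each result.

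Members made up 8.15% of the kept cells in KO (95% interval 7.35 to 9.01, exact Clopper-Pearson) and 7.05% in WT (6.2 to 7.98), a ratio of 1.16 (0.977 to 1.37). The ratio depended on the filters, with 2.26 (1.95 to 2.62) at 500 genes per barcode, 1.33 (1.09 to 1.63) at 2000 genes, 1.32 (1.11 to 1.59) at 5 Dntt UMIs, 1.49 (1.23 to 1.81) at 2 Flt3 UMIs, 1.43 (1.16 to 1.79) at 10000 UMIs and 1.37 (1.19 to 1.57) at 20% mitochondrial UMIs. Its interval held 1 at 2 Dntt UMIs (1.033, 0.879 to 1.215) and at 5% mitochondrial UMIs (1.11, 0.885 to 1.399). The same was so without the highest doublet scores (1.149, 0.967 to 1.366). With the gate applied to cells thinned to 5000 UMIs the ratio was 1.175 (0.986 to 1.405). Among the cells of the gate, 58.3% were Ly6d-negative in KO (54.3 to 62.3) and 50.1% in WT (45.5 to 54.8), a ratio of 1.16 (0.984 to 1.38). When every cell was thinned to 5000 UMIs before the gate was applied, these shares were 60.6% of 649 KO cells and 60.9% of 312 WT cells, with a ratio of 0.994 (0.834 to 1.19). At the limit of 10% mitochondrial UMIs the interval of this ratio thus held 1 both with and without thinning. Thinning also left out the cells under 5000 UMIs, so that 3078 KO and 1749 WT kept cells remained. With up to 20% mitochondrial UMIs and no thinning the shares were 66.7% in KO and 53.0% in WT, a ratio of 1.26 (1.10 to 1.45). Just outside the rule, 70 KO and 93 WT cells of the gate had exactly 1 Ly6d UMI. Just inside it, 8 KO and 19 WT members had 3 Dntt UMIs, while 6 KO and 32 WT cells failed with 2, and 36 KO and 70 WT members had 1 Flt3 UMI, while 46 KO and 99 WT cells failed with none. The Ebf1 limit kept 54 KO and 29 WT cells with 1 UMI and left out 21 and 7 with 2. For Siglech, 38 KO and 18 WT members had 1 UMI and 18 and 10 cells failed with 2, and for Cd79a 10 KO and 3 WT members had 1 UMI and no cell failed with 2.

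The transcripts that chose the cells were plentiful in them. Dntt had a median of 35 UMIs per KO member (3 to 121) and 17.5 per WT member (3 to 130), and stood at 2104 CPM in KO and 1988 CPM in WT. Flt3 stood at 324 CPM in KO members and 398 CPM in WT members. Of the markers outside the rule, Cd34, a surface sialomucin of early progenitors, had 269 CPM in KO members (256 to 282) and 270 CPM in WT members (253 to 289). In the kept cells outside the gate Cd34 had 50.1 CPM in KO and 61.4 CPM in WT, so the members were richer in it in both libraries. Notch1, the receptor that starts T cell commitment in the thymus, had 226 CPM in KO members and 190 CPM in WT members, against 106 and 109 CPM in the kept cells outside the gate. In cells of the gate with 1, 2 to 4, and 5 or more Ly6d UMIs it had 244.5, 225 and 265 CPM in KO. The same cells had 188, 177 and 211 CPM in WT, so its level was not particular to the members. Il7r had 301 CPM in KO members and 350 CPM in WT members, which was below the 919 CPM in KO and 872 CPM in WT of the kept cells outside the gate. Il7r was thus present in the members without being enriched in them, within a population that was sorted for its protein.

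At 5000 UMIs per cell, 69.5% of KO and 73.9% of WT members had an Il7r UMI, 66.0% and 61.3% a Cd34 UMI, and 66.9% and 59.9% a Notch1 UMI. Free RNA also gives UMIs in droplets, so the same shares were taken in a gate of basophils (at least 10 UMIs of Mcpt8, set after seeing the data; median 7850 UMIs in KO and 6120 in WT), where a Cd34 UMI was found in 10.7% of KO and 10.5% of WT cells and a Dntt UMI in 11.6% and 18.4%. Some genes of the B cell programme were near or at zero and others were not. Blnk, an adaptor of B cell receptor signals, had 71.4 CPM in KO members and 71.2 CPM in WT members. Pax5, the factor that commits cells to the B lineage, had no UMI in the members of either library, where a count of 0 allows up to 0.486 CPM in KO and 0.913 CPM in WT, while the early B cells of the same libraries (at least 3 Cd79a UMIs) had 151 and 153 CPM. Igll1, a component of the surrogate light chain, had 1 UMI in the members of each library. Vpreb1, the other surrogate light chain gene, had 3.4 CPM in KO members and 3.35 CPM in WT members, against 174 and 326 CPM in the early B cells. The rule limited Ebf1 and Cd79a, and the early B cells were chosen by Cd79a, so this contrast was in part set by the selection. Of the markers outside the rule, Cd34 and Notch1 were above the kept cells outside the gate in both libraries, and Il7r was below them. The label rests on these levels and on Flt3 and Dntt, which were present by the rule.

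**Figure D1:**
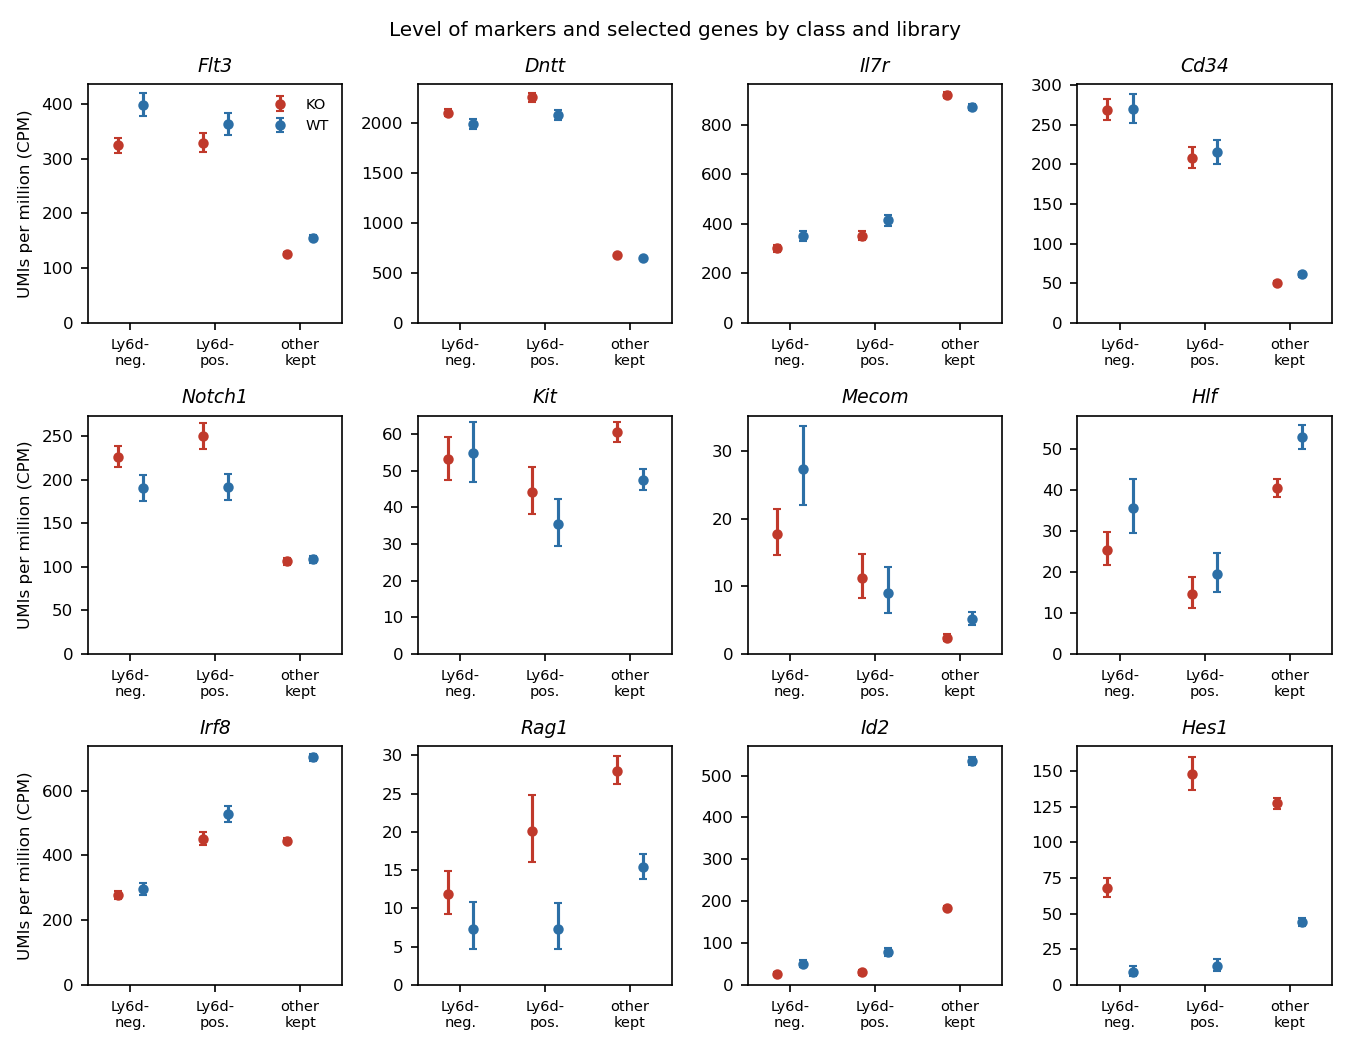
Levels of 12 genes in UMIs per 1000000 (vertical axes, each starting at 0) in Ly6d-negative cells, Ly6d-positive cells and the other kept cells, with KO in red left of WT in blue and bars for the exact 95% Poisson interval. Cd34, Notch1 and Mecom were higher in the Ly6d-negative cells than in the other kept cells of both libraries, Il7r and Hlf were lower, and Hes1 reached 68.2 CPM in KO and 9.13 CPM in WT Ly6d-negative cells.

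Several transcripts outside the rule set the members apart from the kept cells outside the gate. Mecom, a zinc finger regulator of haematopoietic stem cells, had 17.8 CPM in KO members and 27.4 CPM in WT members, against 2.37 and 5.12 CPM in those other cells. Ddx4, an RNA helicase best known from germ cells, had 21.7 CPM in KO members and 28.9 CPM in WT members, against 1.37 and 2.00 CPM. Nkx2-3, a homeobox factor, had 10.04 and 10.96 CPM in KO and WT members, against 0.905 and 1.02 CPM. Hoxa9 (95.2 CPM in KO and 104 CPM in WT members, against 34.8 and 38.9) and Lmo2 (140 and 149 CPM, against 46.4 and 53.0), both regulators of early blood cells, showed the same order. Satb1, a chromatin organiser of lymphoid cells, was closer, with 329 CPM in KO and 333 CPM in WT members against 264 and 243 CPM. Hlf, a factor of stem and multipotent cells, went the other way, with 25.4 CPM in KO members and 35.6 CPM in WT members against 40.4 and 52.8 CPM. These genes come from lists chosen with earlier results of these data known. Hoxa9, Lmo2 and Satb1 were not among the list genes past the rule of size, given below, between Ly6d-negative and Ly6d-positive cells of either library. Their levels are thus not read as particular to the members within the gate.

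The clearest contrast between KO and WT members lay in immediate early and stress genes, which cells switch on within minutes of a stimulus. Of 31 measured genes of that list, 23 were higher in KO members and none was lower, and the median log2 ratio was 0.82. Over all 8479 genes measured, 173 were higher in KO (2.04%) and 247 were lower (2.91%), with a median log2 ratio of -0.03. A gene counted as higher or lower by a rule of size: at least a 1.5-fold difference whose interval left out 1, among genes with at least 50 UMIs over both sums and 10 CPM in the higher sum. Log2 ratios were taken on CPM + 5, which understates changes of low genes, and the genes of the rule were not counted.

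Fos, which encodes a subunit of the AP-1 transcription factor, had 1247 CPM in KO members (1220 to 1276) and 446 CPM in WT members (423 to 469), a 2.80-fold difference (2.65 to 2.96). It was detected in 335 of 354 KO and 179 of 232 WT members. Its partners followed: Junb had 336 CPM in KO and 141 CPM in WT (2.38-fold), Jun 954 and 572 CPM (1.67-fold), and Jund 659 and 439 CPM (1.502-fold). Nr4a1, an orphan nuclear receptor used as a reporter of antigen receptor signals, had 52.5 CPM in KO (46.9 to 58.5) and 11.6 CPM in WT (8.19 to 15.9), a 4.54-fold difference (3.24 to 6.53). It was found in 114 KO and 26 WT members, and its relative Nr4a2 had 13.1 CPM in KO and 3.35 CPM in WT. Egr1, a zinc finger factor of growth signals, had 320 CPM in KO and 171 CPM in WT. Fosb was the nearest gene that missed the rule, with 875 CPM in KO and 614 CPM in WT, a 1.43-fold difference.

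The list also holds genes whose products restrain such signals. Zfp36, which encodes an RNA-binding protein that destabilises cytokine transcripts, had 256 CPM in KO members and 98.3 CPM in WT members (2.60-fold, 2.31 to 2.94). Dusp1 and Dusp2, phosphatases of MAP kinases, had 158 and 304 CPM in KO and 74.9 and 141 CPM in WT. Tnfaip3, the ubiquitin-editing inhibitor of NF-kappaB, had 29.96 CPM in KO and 8.83 CPM in WT, and Nfkbia, the inhibitor that retains NF-kappaB in the cytoplasm, had 224 and 130 CPM. Gadd45b, a stress-induced gene of the growth arrest family, had 45.5 CPM in KO and 14.3 CPM in WT (3.18-fold). The transcription factors Klf2, Klf4 and Klf6 had 178, 93.1 and 107 CPM in KO and 94.4, 47.8 and 54.5 CPM in WT. The cytokine and chemokine genes Tnf (31.6 CPM in KO and 13.4 CPM in WT) and Ccl4 (50.4 and 17.1 CPM) also passed the rule, as did Nfkbiz, an atypical regulator of NF-kappaB (92.6 and 39.0 CPM). Gadd45b, Tnf, Ccl4 and Nfkbiz are outside the list and were chosen after their values were seen.

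Heat shock genes did not move as a block. Hspa1a had 10.8 CPM in KO members and 3.96 CPM in WT members and Dnajb1 120.5 and 71.2 CPM, both past the rule, while Hsp90aa1 (1300 CPM in KO and 1399 CPM in WT) and Hspa8 (1872 and 2023 CPM) did not pass it. Hspa1a has a near-identical neighbour, so its count may be incomplete. Cd69 (467 CPM in KO and 374 CPM in WT), Rgs1 (91.3 and 86.1 CPM), Rgs2, Btg1 and Zfp36l2 were also short of the rule.

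**Figure D2:**
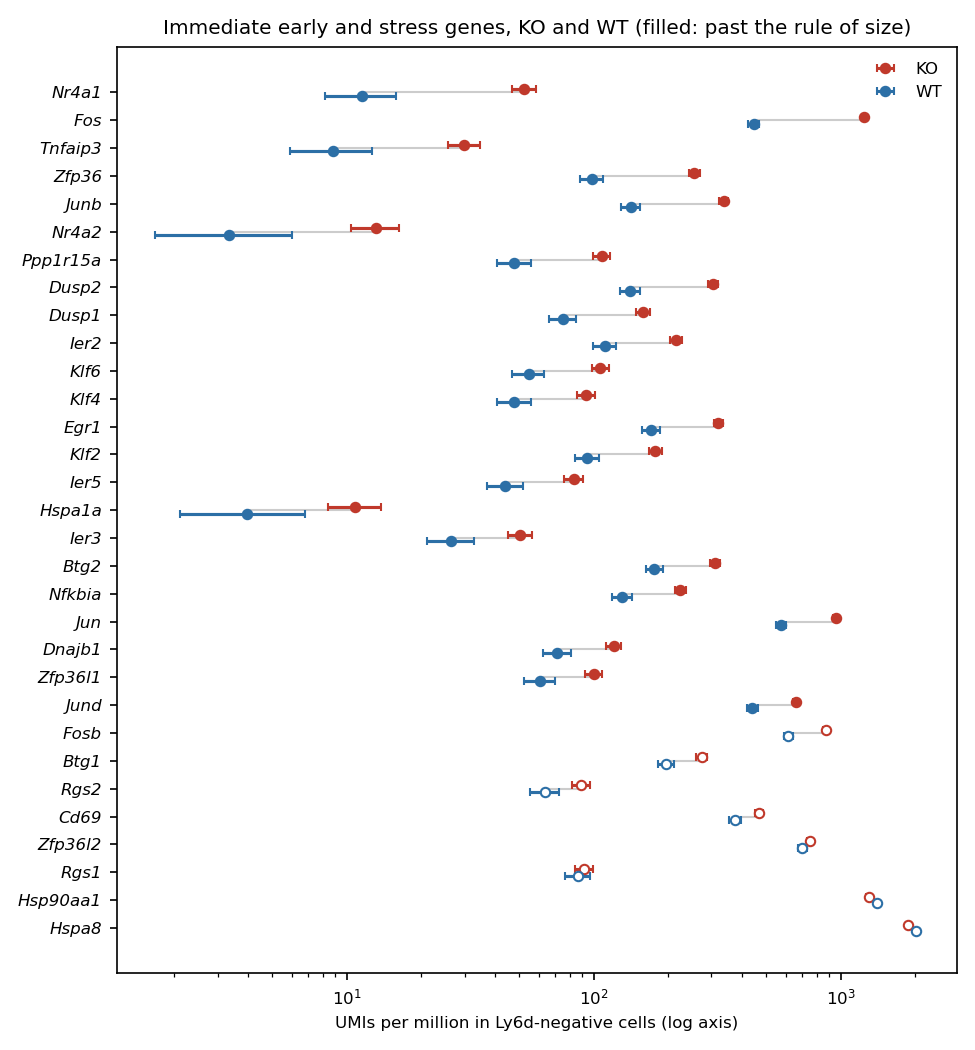
Levels of the 31 measured immediate early and stress genes in Ly6d-negative cells, in UMIs per 1000000 on a log axis, with KO in red just above WT in blue, bars for the exact 95% Poisson interval and filled points for genes past the rule of size. The 23 filled genes all had the KO level to the right of the WT level, from Nr4a1 at the top to Jund.

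The difference was spread over cells. With each cell thinned to 5000 UMIs, the list took a median of 1.08% of UMIs in 347 KO members (quartiles 0.8 and 1.4, highest 4.9) and 0.8% in 142 WT members (quartiles 0.64 and 1, highest 2.16), so the ranges overlapped while each quartile was higher in KO. The Ly6d-positive cells showed medians of 1.08% in KO and 0.82% in WT, and 23 of 32 measured genes of the list were higher in KO there too, with a median log2 ratio of 0.69, beside 2.37% of all genes higher and 2.92% lower. Of 8293 genes measured in both classes, 70 were higher in KO in both (0.844%) and 55 were lower in both (0.663%), while 2 were higher (0.0241%) and 4 lower (0.0482%) in Ly6d-negative cells and the opposite way in Ly6d-positive cells. In cells outside the gate Fos had 1476 CPM in KO and 896 CPM in WT, and in basophils 1350 and 562 CPM. The contrast was thus also found outside the members. It was seen in both sexes: in cells with Xist and no Y-linked UMIs Fos had 1117 CPM in KO and 406 CPM in WT, and in cells with Y-linked and no Xist UMIs 1290 and 539 CPM.

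**Figure D3:**
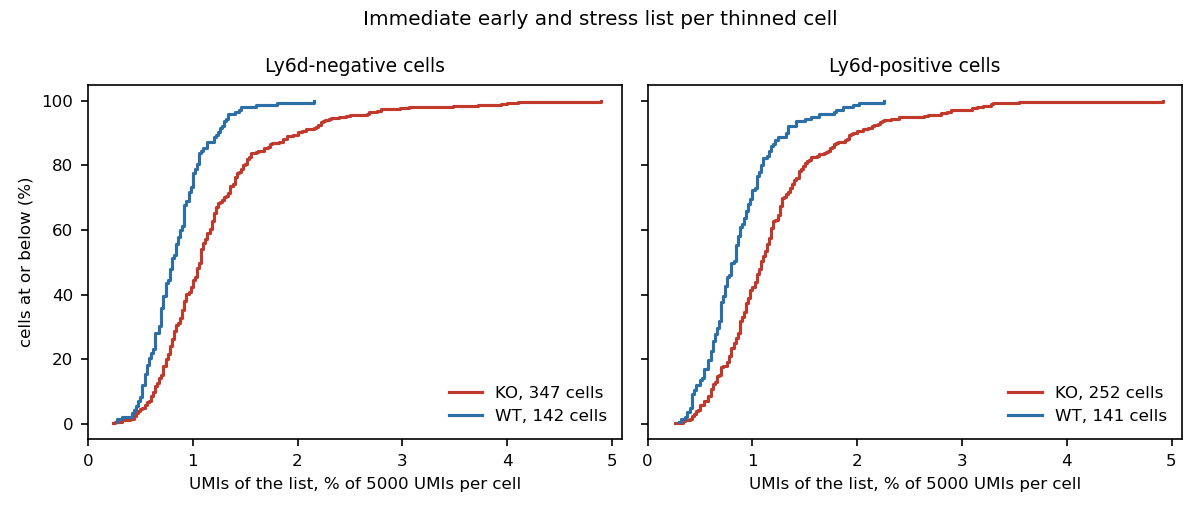
Share of 5000 UMIs per cell taken by the immediate early and stress list (horizontal axis, percent) against the percent of cells at or below it (vertical axis), for Ly6d-negative cells on the left and Ly6d-positive cells on the right, with KO in red and WT in blue. The KO curve lay to the right of the WT curve in both panels, with medians of 1.08% in KO and 0.8% in WT Ly6d-negative cells.

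The upstream sequences of Fos, Nr4a1 and Dusp1 are shown because these genes moved together, and that of Socs3 because it is a feedback gene of cytokine signals and was also higher in KO. Each is the 250 bases before the gene's start in RefSeq (build GRCm38.p6), read 5′ to 3′ on the gene's strand. They were searched on both strands for TGACG and TGACGTCA, the core and the full element bound by CREB and ATF factors, TGANTCA (AP-1), TTCNNNGAA (STAT) and the CArG box of serum response factor, and capitals mark the matches, where CGTCA is TGACG on the other strand and each full element also holds a match to TGACG on each strand. Fos lies at chr12:85473640-85473889 (+ strand), Nr4a1 at chr15:101266596-101266845 (+), Dusp1 at chr17:26508473-26508722 (-) and Socs3 at chr11:117969367-117969616 (-).
Fos: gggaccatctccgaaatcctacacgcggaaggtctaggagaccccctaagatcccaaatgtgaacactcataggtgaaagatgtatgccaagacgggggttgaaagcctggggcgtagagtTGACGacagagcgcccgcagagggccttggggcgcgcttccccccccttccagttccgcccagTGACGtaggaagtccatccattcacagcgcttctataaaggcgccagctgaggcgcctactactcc
Nr4a1: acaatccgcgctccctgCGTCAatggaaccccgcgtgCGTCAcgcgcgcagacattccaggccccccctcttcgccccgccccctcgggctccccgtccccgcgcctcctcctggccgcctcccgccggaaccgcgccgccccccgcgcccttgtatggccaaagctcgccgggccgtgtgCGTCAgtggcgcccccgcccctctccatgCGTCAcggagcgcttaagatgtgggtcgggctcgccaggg
Dusp1: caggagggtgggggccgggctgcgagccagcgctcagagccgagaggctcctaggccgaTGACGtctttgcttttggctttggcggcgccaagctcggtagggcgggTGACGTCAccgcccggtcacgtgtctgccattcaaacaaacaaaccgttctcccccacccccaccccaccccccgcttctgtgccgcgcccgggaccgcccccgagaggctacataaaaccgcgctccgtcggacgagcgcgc
Socs3: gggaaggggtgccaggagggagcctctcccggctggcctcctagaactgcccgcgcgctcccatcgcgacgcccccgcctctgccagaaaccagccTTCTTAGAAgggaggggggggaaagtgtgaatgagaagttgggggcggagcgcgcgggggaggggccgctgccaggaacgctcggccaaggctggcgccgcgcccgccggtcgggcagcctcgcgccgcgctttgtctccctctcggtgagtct
Fos held 2 matches to TGACG, Nr4a1 4, and Dusp1 3, among them those of the full element at bases -143 to -136 before its start. Of 32851 windows of this length in the table, 17.8% held TGACG at least once and 0.137% at least 4 times, and 1.55% held TGACGTCA. Socs3 held TTCTTAGAA at bases -154 to -146, a match to the STAT letters, which 7.02% of all windows held. None of the 4 windows held TGANTCA or a CArG box, found in 6.75% and 1.47% of all windows. Bases further upstream were not searched, so sites of these genes beyond the windows would be missed. A match is a description of letters, and the counts say nothing of a factor at these sites.

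Hes1 had the highest log2 ratio of the genes named, 2.37. This transcriptional repressor, a classical target of Notch, lies at chr16:30064384-30067796 (mm10, + strand). It had 68.2 CPM in KO members (61.8 to 75) and 9.13 CPM in WT members (6.16 to 13.04), a 7.47-fold difference (5.15 to 11.2). The counts behind these levels were 421 UMIs in 96 KO members and 30 UMIs in 11 WT members, of which 12 lay in 1 WT cell. At 5000 UMIs per cell a Hes1 UMI was found in 16.1% of KO and 3.52% of WT members, and in 3.31% of KO and 1.75% of WT basophils. The KO share thus stood above that of the basophils, and the WT share was closer to it. Ly6d-positive cells had 148 CPM in KO and 13.7 CPM in WT, and cells of a precursor gate for innate lymphoid cells (at least 3 Zbtb16 UMIs and no Cd3e) had 280 and 163 CPM. Hes1 was higher in KO in both sexes, with 51.2 CPM in KO and 4.95 CPM in WT for Xist without Y-linked UMIs and 82.1 and 20.0 CPM for Y-linked without Xist UMIs, and its log2 ratio lay between 1.79 and 2.89 under all 21 alternatives.

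The other measured genes of Notch signalling and the T lineage did not share this. Of 13 measured, 1 was higher (Hes1) and 2 were lower in KO members, Bcl11b and Il2ra, with a median log2 ratio of -0.04. Bcl11b, the T lineage commitment factor, had 7.61 CPM in KO and 12.8 CPM in WT from 11 cells in each. Tcf7, which Notch induces in early T cell precursors, had 26.6 CPM in KO and 23.7 CPM in WT, and Gata3 20.6 and 25.3 CPM. Notch1 itself had a 1.19-fold ratio (1.08 to 1.31), short of the rule.

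Socs3, which terminates cytokine receptor signals through JAK and STAT proteins, had 26.7 CPM in KO members (22.8 to 31.1) and 5.78 CPM in WT members (3.48 to 9.03), a 4.62-fold difference (2.87 to 7.87). In the list of the interleukin-7 and STAT5 response, 3 of 17 measured genes were higher in KO (Socs3, Mcl1 and Bcl2l1), 1 was lower (Socs2), and the median log2 ratio was 0.12. Mcl1, a survival protein that lymphoid progenitors need, had 266 CPM in KO and 170 CPM in WT. Socs2, an inhibitor of growth hormone and cytokine signals, had 19.8 CPM in KO and 33.2 CPM in WT. Pim1 and Cish, both common targets of STAT5, did not pass, with 302 and 14.2 CPM in KO and 220 and 15.8 CPM in WT. Of the survival list 3 of 12 were higher and none was lower, the third being Bcl2l11, the pro-apoptotic BIM (56.2 CPM in KO and 34.4 CPM in WT), while Bcl2 had 167 CPM in KO and 242 CPM in WT, a 1.44-fold lower level that missed the rule.

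Among the 12 highest ratios were also genes whose sums rested on few cells. Lypd1, a Ly6 family protein of neurons, had 97 UMIs in KO members and 1 UMI in WT members (ratio 51.6, 9.045 to 2059), but 96 of the 97 lay in 1 cell. The olfactory receptor gene Olfr655 had 86 UMIs in KO and 1 in WT, with 49 in 1 cell (ratio 45.8, 7.995 to 1828). Dqx1, a putative RNA helicase, had 54.3 CPM in 25 KO cells and 8.22 CPM in 13 WT cells, and Olfr1369-ps1, an olfactory receptor pseudogene, 122 CPM in 35 and 39.0 CPM in 22. Tmem88, a membrane protein that binds Dishevelled, was spread more evenly, with 12.6 CPM in 57 KO cells and 1.83 CPM in 6 WT cells.

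Outside haemoglobin, which had lower ratios still, the genes with the lowest ratios of KO over WT members included transcripts of basophils and mast cells. Prss34, a basophil and mast cell protease, had 21.9 CPM in KO members and 253 CPM in WT members (11.6-fold lower in KO, 9.64 to 13.98), and Mcpt8, a basophil protease, had 27.0 and 224 CPM (8.28-fold, 6.99 to 9.86). Ms4a2, a chain of the IgE receptor, had 2.75 CPM in KO and 19.5 CPM in WT, and Gata2, a factor of stem cells and mast cells, 6.96 and 18.6 CPM. All 6 basophil markers were detected in both libraries and summed to 85.7 CPM in KO and 568 CPM in WT members. In WT 66.3% of that sum lay in 3 cells, and without the 3 highest cells of each group the sums were 67.7 CPM in KO and 192 CPM in WT. Haemoglobin followed the same course: its 4 measured genes were lower in KO, with a median log2 ratio of -6.66, and 97.5% of the WT erythroid marker sum (65.1 CPM in KO and 2964 CPM in WT) lay in 3 cells, without which it was 54.1 and 74.6 CPM. The part of basophils, red cells or their free RNA in these differences was not tested.

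Of the 9 measured ILC2 genes, 2 were lower in KO members and none was higher. Il1rl1, the interleukin-33 receptor, had 5.34 CPM in KO and 21.3 CPM in WT, and Il2ra, the interleukin-2 receptor alpha chain, 2.75 and 12.5 CPM. In WT 21 of the 41 Il2ra UMIs lay in 1 cell, and Il2ra passed the rule in 11 of 21 alternatives. The list's median log2 ratio was -0.24. Both genes are also expressed by mast cells or basophils, whose markers moved the same way. The ILC2 markers summed to 79.0 CPM in KO and 115 CPM in WT, and those of ILC precursors to 87.0 and 116 CPM, with 1 of 16 measured precursor genes lower (Id2) and none higher.

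Id2, an inhibitor of E proteins that innate lymphoid precursors need, lies at chr12:25093799-25097140 (mm10, - strand). It had 27.4 CPM in KO members (23.4 to 31.8) and 50.5 CPM in WT members (43.1 to 58.8), 1.85-fold lower in KO (1.48 to 2.30). Ly6d-positive cells had 29.9 CPM in KO and 77.9 CPM in WT, and the ILC precursor gate 268 and 1279 CPM. At 5000 UMIs per cell an Id2 UMI was found in 10.95% of KO and 16.9% of WT members, against 13.4% and 16.3% of early B cells, a type taken to lack it. That gate held 127 KO and 57 WT cells, of which 8 in each library had under 5000 UMIs and were left out. Before thinning its median depths were 12750 and 15360 UMIs. The share in the members was thus near that in the early B cells, and the part of free RNA in it was not tested. It is not read as expression in either library, nor its difference as one of the cells. The difference was not seen in both sexes: members with Xist and no Y-linked UMIs had 13.9 CPM in KO (9.54 to 19.45) and 45.2 CPM in WT (35.4 to 56.8), whereas those with Y-linked and no Xist UMIs had 29.2 CPM in KO (23.2 to 36.3) and 28.2 CPM in WT (18.1 to 42.0). The E proteins that Id2 binds did not pass the rule, with Tcf3 at 97.3 CPM in KO and 104 CPM in WT, Tcf4 at 339 and 320 CPM and Tcf12 at 74.3 and 75.2 CPM.

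The remaining lower genes were scattered over functions. Khdrbs3, an RNA-binding protein, had 14.9 CPM in KO members and 50.5 CPM in WT members (3.39-fold lower, 2.61 to 4.42), in 63 and 87 cells. Samd1, a protein of unmethylated CpG islands, had 16.4 CPM in 81 KO cells and 44.1 CPM in 79 WT cells. Fam129a had 3.89 and 14.3 CPM, and Ctsg, the granule protease cathepsin G, 11.7 and 32.0 CPM. The histone genes Hist1h2bj (23.6 CPM in KO and 57.5 CPM in WT) and Hist1h2ab (40.3 and 84.6 CPM) are mostly copied in S phase and lack the usual poly(A) tail, on which this chemistry primes. All 6 had the same direction in the Ly6d-positive cells, where each except Hist1h2ab passed the rule.

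Of 22 measured stem and multipotent progenitor genes, 6 were lower (Mecom, Ly6a, Gata2, Tal1, Mycn and Cd63) and none was higher, with a median log2 ratio of -0.12. Mecom was 1.54-fold lower (1.15 to 2.05), with a UMI in 77 KO and 42 WT members. Ly6a, the Sca-1 antigen, had 29.2 CPM in KO and 46.0 CPM in WT, and Mycn, a MYC family factor, 13.4 and 23.4 CPM. Gata2 and Cd63 are shared with basophils. Cd34, Kit, Meis1 and Hlf did not pass, with ratios of 0.994, 0.969, 0.835 and 0.714.

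Genes of DNA synthesis were measured through the S phase list, where 4 of 25 genes were lower in KO and none was higher, with a median log2 ratio of -0.25. Without cells high in G2/M genes that median was -0.07, in cells with Xist and no Y-linked UMIs -0.10 and in those with Y-linked and no Xist UMIs -0.44. Rrm2, a subunit of ribonucleotide reductase, had 44.4 CPM in KO and 83.4 CPM in WT, and the cyclin gene Ccne2 29.6 and 50.8 CPM. Ccne1 and E2f8 also passed. For G2/M phase 1 of 25 was lower (Mki67, 332 CPM in KO and 518 CPM in WT), 1 was higher (Ccnb2, 91.7 and 57.5 CPM) and the median was -0.03. At 5000 UMIs per cell the S phase list took a median of 0.24% of UMIs in KO members and 0.32% in WT members, with overlapping ranges.

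Few genes of the lineage lists passed the rule between the libraries. Of 27 measured lymphoid priming genes 2 were higher in KO (Rag1 and Btg2) and none was lower, with a median log2 ratio of 0.04. Rag1, the recombinase subunit, had 11.8 CPM in KO and 7.31 CPM in WT, at the edge of the rule with an interval of the fold of 1.01 to 2.68. None of 11 measured early B genes passed, and none of 4 NK genes. Of 32 lymphoid transcription factors 1 was lower (Gfi1, 8.91 CPM in KO and 15.5 CPM in WT). Of 16 dendritic genes, the invariant chain Cd74 (60.6 CPM in KO and 32.9 CPM in WT) and the class II genes H2-Aa (21.7 and 12.8 CPM) and H2-Eb1 (15.4 and 6.70 CPM) were higher, with a single KO cell holding 70 of 374 Cd74 UMIs, and Id2 was lower. Of 18 myeloid genes, Cebpb was higher (40.0 CPM in KO and 21.3 CPM in WT) and Ctsg, Prtn3 and Csf3r were lower. In the list of chemokine receptors, integrins and homing only Klf2 of 17 was higher, and in that of cytokine receptors Il1rl1 and Csf3r of 20 were lower.

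The members were then set against the Ly6d-positive cells of their own library, which share sort, pool and run with them. In KO 80 of 8420 genes were higher in Ly6d-negative cells (0.95%) and 137 were lower (1.63%), and in WT 137 of 8531 were higher (1.61%) and 188 lower (2.2%). Of 8239 genes measured in both libraries, 12 were higher in both (0.146%) and 29 were lower in both (0.352%). Another 3 were higher in KO and lower in WT (0.0364%), and 2 the reverse (0.0243%). Each library has its own cells, so these counts compare separate sums. When the gate was applied to cells thinned to 5000 UMIs, 15 of the 80 higher and 56 of the 137 lower genes in KO passed again, and 31 of the 137 higher and 50 of the 188 lower in WT.

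The genes higher in Ly6d-negative cells of both libraries held several of stem and multipotent cells. Mecom had 17.8 CPM in Ly6d-negative and 11.2 CPM in Ly6d-positive KO cells (1.59-fold, 1.13 to 2.28), and 27.4 and 9.01 CPM in WT (3.04-fold, 2.00 to 4.73). Hlf had 25.4 and 14.6 CPM in KO and 35.6 and 19.5 CPM in WT. Adgrl4, an adhesion receptor also known from endothelium, had 78.5 and 51.2 CPM in KO (1.53-fold, 1.31 to 1.81) and 93.5 and 55.8 CPM in WT (1.67-fold, 1.39 to 2.02). Nkx2-3 had 10.0 and 4.80 CPM in KO and 10.96 and 4.07 CPM in WT, and passed the rule in 11 of 21 alternatives in KO and 8 of 21 in WT. Of the stem and multipotent list, 4 of 20 measured genes were higher in KO and 1 was lower (Ly6a), with a median log2 ratio of 0.20. In WT 8 of 22 were higher and 2 lower (Ly6a and Cd63), with a median of 0.27. Ly6a thus went the other way in both libraries, with log2 ratios of -0.86 in KO, the largest absolute ratio of the list there, and -0.60 in WT. Cd63 had -0.90 in WT. Kit, the stem cell factor receptor, passed in WT (54.8 CPM in Ly6d-negative and 35.5 CPM in Ly6d-positive cells) and not in KO (53.1 and 44.3 CPM), and whether the libraries differ in this was not tested. Cd34 was 1.29-fold higher in KO (1.19 to 1.40) and 1.26-fold in WT (1.14 to 1.39), short of the rule in both.

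The other genes higher in both were of mixed function. Ddx4 had 21.7 CPM in Ly6d-negative and 8.68 CPM in Ly6d-positive KO cells (2.5-fold, 1.73 to 3.68), and 28.9 and 14.2 CPM in WT (2.03-fold, 1.42 to 2.93). Wfdc17, a small secreted inhibitor of myeloid cells, had 57.2 and 23.8 CPM in KO and 69.4 and 41.3 CPM in WT. Spry2, an inhibitor of receptor tyrosine kinase signals, had 13.9 and 7.77 CPM in KO and 14 and 7.27 CPM in WT. It passed the rule in 13 of 21 alternatives in KO and 12 of 21 in WT. With the gate applied to thinned cells its log2 ratio in WT was 0.008. Gcnt2, a glycosyltransferase, had 64.8 and 43.2 CPM in KO and 74.0 and 45.9 CPM in WT, and passed in 11 of 21 alternatives in KO and 19 of 21 in WT. Tmem158 had 11.5 and 5.71 CPM in KO and 21.0 and 8.43 CPM in WT. Hist1h2ai was at the edge in KO with a ratio of 1.51 (1.02 to 2.28).

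**Figure D4:**
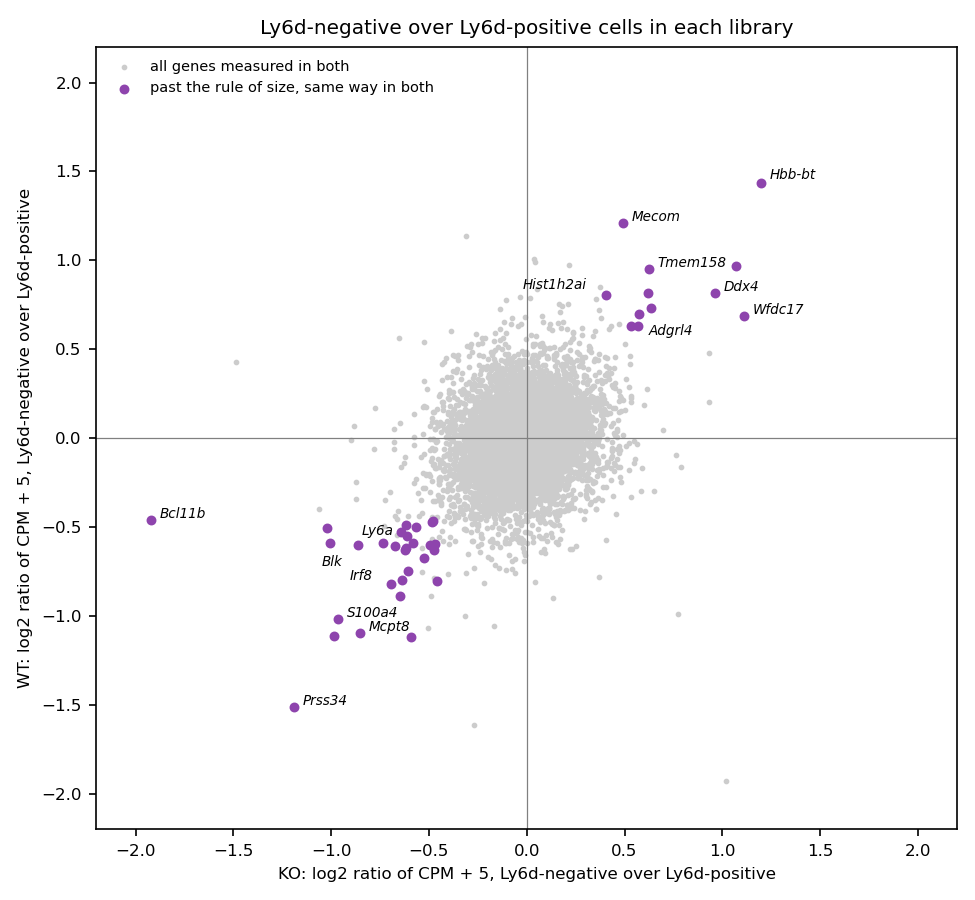
Log2 ratio of CPM + 5 of Ly6d-negative over Ly6d-positive cells in KO (horizontal axis) and WT (vertical axis) for 8243 genes measured in both, 4 genes of the selection rule included, with 1 gene outside the axes and genes past the rule of size the same way in both libraries in purple. Mecom, Ddx4 and Wfdc17 stand at the upper right and Irf8, Blk and Bcl11b at the lower left, with Prss34 and Mcpt8 among the lowest.

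Of the genes lower in Ly6d-negative cells, Irf8 had one of the highest counts. This factor directs dendritic and B cell development. It had 278 CPM in Ly6d-negative (265 to 291) and 451 CPM in Ly6d-positive KO cells (432 to 472), 1.63-fold lower (1.52 to 1.74), and 296 CPM (278 to 316) and 527 CPM (503 to 552) in WT, 1.78-fold lower (1.64 to 1.92). At 5000 UMIs per cell an Irf8 UMI was found in 47.8% of Ly6d-negative and 59.1% of Ly6d-positive KO cells, and in 58.5% and 70.2% in WT, while basophils had 3.31% in KO and 13.2% in WT. Ly6e and Ly6a, relatives of Ly6d in the same protein family, were lower too. Ly6e had 596 and 994 CPM in KO and 587 and 888 CPM in WT, and Ly6a 29.2 and 57.1 CPM in KO and 46.0 and 72.4 CPM in WT. Tfrc, the transferrin receptor of iron uptake, had 101 and 157 CPM in KO and 87.7 and 138 CPM in WT. Blk, a Src family kinase of B cells, had 8.42 and 21.9 CPM in KO and 7.001 and 13.1 CPM in WT, where it passed the rule in 9 of 21 alternatives.

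Smaller sums were lower as well. Chdh, choline dehydrogenase, had 34.2 CPM in Ly6d-negative and 56.0 CPM in Ly6d-positive KO cells and 41.4 and 75.6 CPM in WT. Mycl, a MYC family factor of dendritic cells, had 6.96 and 13.2 CPM in KO and 5.78 and 13.1 CPM in WT, and Smpd3, a neutral sphingomyelinase, 5.99 and 11.9 CPM in KO and 4.87 and 10.2 CPM in WT, where it passed the rule in 6 of 21 alternatives. S100a4, a calcium-binding protein, had 10.7 and 25.6 CPM in KO and 13.4 and 32.3 CPM in WT, and Nol4l 11.3 and 20.6 CPM in KO and 12.5 and 27.3 CPM in WT. Prss34 and Mcpt8 were lower by the sums (21.9 and 56.2 CPM and 27.0 and 52.8 CPM in KO, 253 and 730 CPM and 224 and 484 CPM in WT). In the Ly6d-positive cells, however, 141 of 246 KO and 1615 of 2512 WT Prss34 UMIs lay in 1 cell each, and without the 3 highest cells per gene the log2 ratio of Prss34 in WT was 0.27 and that of Mcpt8 0.08 in KO and 0.15 in WT.

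T lineage transcripts were lower in Ly6d-negative cells, in more genes in KO than in WT, and whether the libraries differ in this was not tested. Of 13 measured genes of the Notch and T lineage list, 7 were lower in KO and none was higher, with a median log2 ratio of -0.67, and 3 were lower in WT, with a median of -0.22. Bcl11b had 7.61 CPM in Ly6d-negative and 42.7 CPM in Ly6d-positive KO cells, from 11 and 23 cells, and 12.8 and 19.5 CPM in WT, from 11 and 18 cells. Hes1 had 68.2 and 148 CPM in KO (2.16-fold lower, 1.91 to 2.45), with UMIs in 96 and 99 cells, and 9.13 and 13.7 CPM in WT. Tcf7 had 26.6 and 45.5 CPM in KO and 23.7 and 25 CPM in WT, and Ptcra, the pre-T cell receptor alpha chain, 1.62 and 10.7 CPM in KO from 4 and 5 cells. Thy1 had 8.58 and 19.9 CPM in KO and 10.7 and 14.8 CPM in WT. T cell markers summed to 30.6 CPM in Ly6d-negative and 53.7 CPM in Ly6d-positive KO cells and to 20.1 and 43.3 CPM in WT, with none of the 5 at 0. In 3 cells lay 34.9% and 28.1% of the KO sums and 45.5% and 37.6% of the WT sums. The part of T lineage cells or doublets with them in this was not tested.

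Innate lymphoid and dendritic lists were also lower in part. Of the ILC precursor list, 2 of 17 were lower in KO (Zbtb16 and Tcf7), and 6 of 18 in WT (Id2, Gata3, Itgb7, Il18r1, Cxcr6 and Maf), where Kit was higher. Gata3 had 25.3 CPM in Ly6d-negative and 45.3 CPM in Ly6d-positive WT cells, and 20.6 and 21.9 CPM in KO. For the dendritic list the median log2 ratio was -0.25 in KO and -0.35 in WT, with Irf8 lower in both, and the plasmacytoid markers left in the sum, with Klk1 at 0, totalled 439 CPM in Ly6d-negative and 583 CPM in Ly6d-positive KO cells and 371 and 518 CPM in WT. Of 13 early B genes measured in KO 2 were lower (Blk and Foxo1) and Bank1 was higher, and of 12 in WT Blk was lower. Rag1 had 11.8 CPM in Ly6d-negative and 20.1 CPM in Ly6d-positive KO cells, 1.70-fold lower (1.23 to 2.35). The immediate early and stress list was alike in both classes: none of 32 genes passed in KO and 1 of 29 in WT (Rgs1, higher), with medians of -0.01 and -0.11. None of the S phase or G2/M genes passed in either library.

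Within the gate the levels of several genes changed with the number of Ly6d UMIs per cell, and not only between cells with none and cells with any. In cells with 0, 1, 2 to 4, and 5 or more Ly6d UMIs (354, 70, 58 and 125 KO cells and 232, 93, 81 and 57 WT cells), Mecom had 17.8, 15.1, 11.9 and 8.54 CPM in KO and 27.4, 14.5, 5.63 and 5.02 CPM in WT. Ddx4 had 21.7, 20.6, 6.92 and 2.37 CPM in KO and 28.9, 27.6, 7.50 and 3.01 CPM in WT, so its drop came between 1 and 2 to 4 UMIs. Cd34 declined more gently, with 269, 246, 220 and 180 CPM in KO and 270, 261, 193 and 176 CPM in WT. Ly6e went the other way, with 596, 856, 803 and 1169 CPM in KO and 587, 710, 902 and 1119 CPM in WT. Irf8 had 278, 427, 373 and 504 CPM in KO and 296, 412, 471 and 748 CPM in WT. Tfrc had 101, 122, 151 and 182 CPM in KO and 87.7, 126, 120 and 176 CPM in WT. Blnk had 71.4, 84.2, 75.1 and 131 CPM in KO and 71.2, 70.4, 93.8 and 104 CPM in WT. Pax5 stayed at or under 1.45 CPM in all bins, against the 151 and 153 CPM of early B cells. A cell with 1 Ly6d UMI differed from a cell with none by a single molecule, and the median depth of the bins lay between 15508 and 18227 UMIs in KO and between 4559 and 18065 UMIs in WT.

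**Figure D5:**
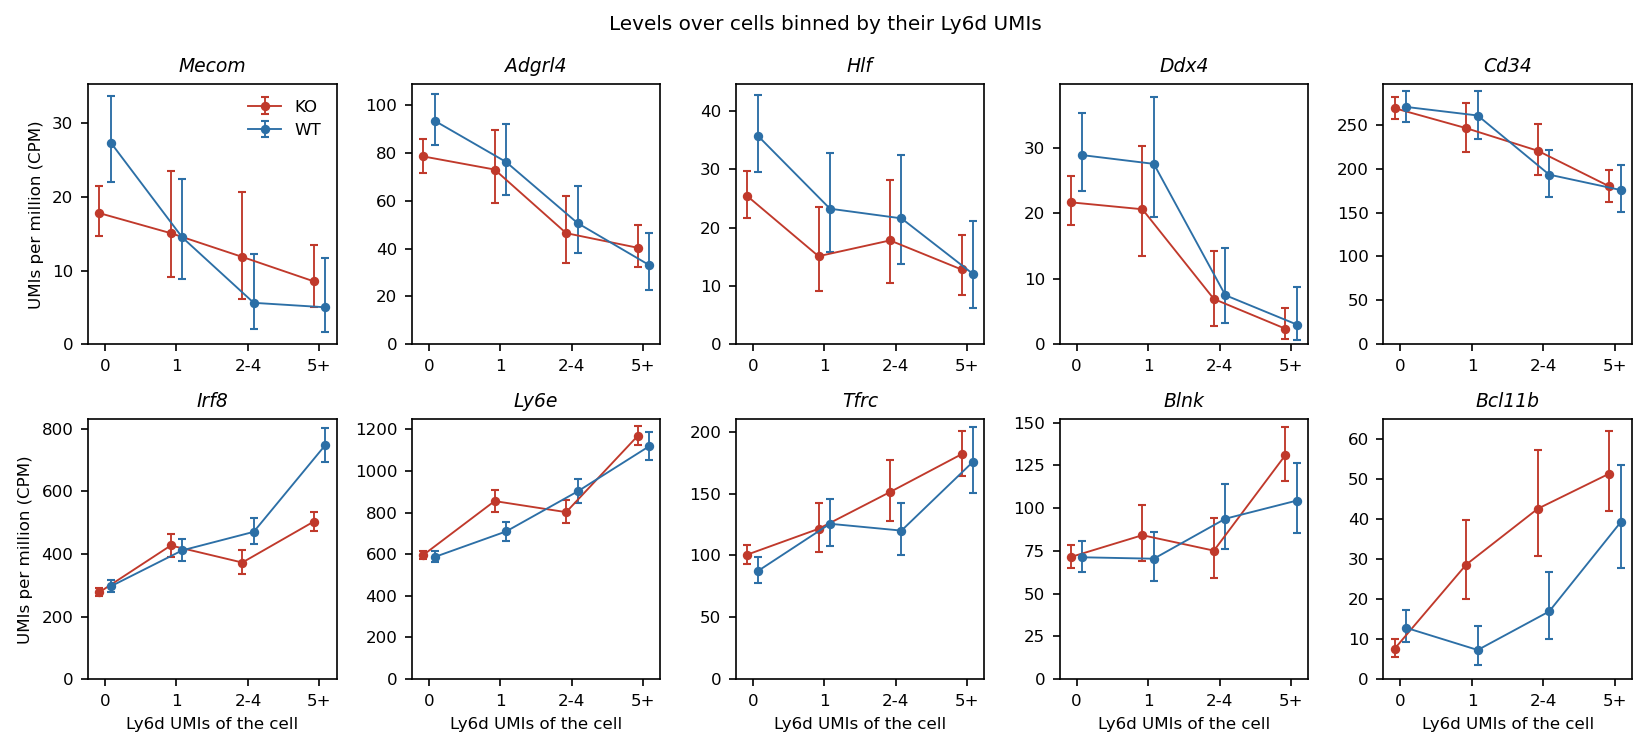
Levels of 10 genes in UMIs per 1000000 (vertical axes, each starting at 0) over cells with 0, 1, 2 to 4 and 5 or more Ly6d UMIs (horizontal axis), with KO in red and WT in blue and bars for the exact 95% Poisson interval. Mecom, Adgrl4, Hlf, Ddx4 and Cd34 were lowest in the bin with the most Ly6d, and Irf8, Ly6e, Tfrc, Blnk and Bcl11b were highest there in both libraries.

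The members were also split by Irf8. With each cell thinned to 5000 UMIs, 166 of 347 KO members (47.8%, 42.5 to 53.2) and 83 of 142 WT members (58.5%, 49.9 to 66.7) had an Irf8 UMI, a split chosen after the data were seen. The median depth was 16744 UMIs with and 15757 without Irf8 in KO, and 19874 and 20748 in WT. In KO 142 genes were higher with Irf8 (1.7%) and 181 lower (2.16%), and in WT 150 (2.21%) and 211 (3.11%). The same way in both libraries were 9 higher (0.133% of 6770 genes) and 20 lower (0.295%), and 6 of these 6770 genes passed in opposite ways. Whether these counts exceed what the shares of each library alone would give was not tested, so the genes named below are a description. Splits by Rag1, Tcf7, Hes1, Hlf and Mpo were also made and are not described. They left 8, 4, 5, 19 and 53 WT cells with a UMI of the gene.

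The genes higher in members with Irf8 in both libraries included Ly86, Blnk and Zeb2. Ly86, the MD-1 protein of antigen-presenting cells, had 94.5 CPM with and 39.7 CPM without Irf8 in KO (2.38-fold, 1.92 to 2.97) and 74.96 and 37.5 CPM in WT. Blnk had 87.0 and 55.1 CPM in KO and 87.6 and 50.0 CPM in WT. Zeb2, a transcriptional repressor active within dendritic and myeloid cells, had 154 and 102 CPM in KO and 182 and 102 CPM in WT. Those lower with Irf8 in both included Tcf7, Rora and Ikzf2. Tcf7 had 16.7 CPM with and 36.4 CPM without Irf8 in KO and 3.43 and 50.0 CPM in WT, and Rora, a nuclear receptor of ILC2, 18.4 and 43.2 CPM in KO and 9.16 and 53.9 CPM in WT. Ikzf2, the factor Helios, had 20.0 and 35.1 CPM in KO and 17.2 and 50.0 CPM in WT. The mast cell gene Cpa3 was lower with Irf8 as well, with 12.8 and 37.7 CPM in KO and 21.2 and 71.9 CPM in WT. The Tcf7 sums rested on 14 and 21 KO cells and 3 and 5 WT cells. Cd34 (269 and 270 CPM in KO, 275 and 276 CPM in WT), Notch1 (230 and 220 CPM in KO, 191 and 184 CPM in WT) and Fos (1198 and 1300 CPM in KO, 456 and 424 CPM in WT) did not pass the rule in this split.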

How the data were processed

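Single-cell 3' libraries (10x Genomics, v3.1) of 1 KO and 1 WT pool were analysed. The deposited matrices hold raw UMI counts, which Cell Ranger 3.1.0 wrote per the file headers, on mm10 per the submitters' processing notes, which also name Seurat. The sources used here do not give the gene annotation release. Gene positions come from the deposited gene identifiers matched to the mm10 annotation, and upstream sequences from RefSeq.

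Cells were gated on raw counts as the report describes, with no doublet removal: Scrublet (scanpy 1.11.5) marked 27 of 4489 KO barcodes (0.602%) and 0 of 10519 WT barcodes, which counts as a failed call, so the 8% of barcodes with the highest scores were left out only as an alternative. UMIs were summed per library and class (Python 3.11.15, numpy 2.4.6, scipy 1.17.1, pandas 2.3.3). Sums carry exact Poisson intervals, shares exact Clopper-Pearson intervals and ratios exact binomial intervals, all at 95%, for counting error only and not adjusted over genes. The pseudocount was 5 CPM and the limit of a count of 0 was 3 UMIs over the class. TMM factors (edgeR 4.0.16 in R 4.3.3) served as an alternative scaling. On simulated counts for the KO and WT members the rule of size was tested before use. The simulated sums held counting error only and changes larger than the limit of the rule. Real sums can lie in few cells, so that check does not give the share of false calls here.

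The members, the 25 lists of 477 genes and the 12 sets of cell markers were chosen with earlier results of these data known. The genes named were the up to 12 highest and 12 lowest ratios past the rule of size between KO and WT members, and the same for Ly6d-negative over Ly6d-positive cells among genes past it in both libraries, ranked by the smaller ratio, leaving out sex-linked and mitochondrial genes, antigen receptor, haemoglobin and ribosomal protein genes, models without a symbol and the 6 gate genes. The markers, Id2 and up to 6 members of each list per comparison were named as well, and other genes after their values were seen. In total 18 alternatives were planned and 3 were added.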

Additional observations from a re-analysis of the deposited data

Results flagged for a closer look

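In 5 genes Ly6d-negative over Ly6d-positive passed the rule of size one way in KO and the opposite way in WT. None of these differences was tested. Dqx1 had log2 ratios of 1.02 in KO and -1.93 in WT, from 25 Ly6d-negative and 13 Ly6d-positive KO cells and 13 and 17 WT cells, with up to 92 UMIs in a cell. Olfr1369-ps1 had 0.77 in KO and -0.99 in WT, with up to 92 UMIs in a cell. Ptges2, a prostaglandin E synthase, had 0.41 in KO and -0.58 in WT, with at most 3 UMIs in a cell. Fam169b had -0.66 in KO and 0.56 in WT, and Ostm1, a subunit of a lysosomal chloride transporter, had -0.53 in KO and 0.54 in WT. These 5 genes were 3 higher in KO and lower in WT (0.0364% of 8239 genes) and 2 the other way (0.0243%). Over all measured genes, 0.95% were higher and 1.63% lower in KO, and 1.61% higher and 2.2% lower in WT. Whether 5 such pairs exceed what these shares alone would give was not tested.

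Between KO and WT, 6 such pairs were found among 8293 genes, 2 higher (0.0241%) and 4 lower (0.0482%) in Ly6d-negative cells and the opposite way in Ly6d-positive cells, again untested. Dqx1 had log2 ratios of 2.16 in Ly6d-negative and -0.79 in Ly6d-positive cells, and Ptges2 had 0.51 and -0.47. Ostm1 had -0.48 and 0.59, and Myof, a membrane repair protein, had -0.46 and 0.48. Bcl11b had -0.50 in Ly6d-negative cells, where KO and WT had 7.61 and 12.8 CPM from 11 cells each, and 0.96 in Ly6d-positive cells, where they had 42.7 and 19.5 CPM from 23 and 18 cells.

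Outside the cells compared, 400 KO and 130 WT barcodes met the gene rule of the Ly6d-negative cells and exceeded the limit on mitochondrial UMIs, with medians of 4493.5 and 4739 UMIs. In KO they outnumbered the 354 members.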

How the results depend on the processing

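No paired analysis was possible because each genotype had 1 library. Each of 18 other settings listed at the start and 3 chosen after seeing the data (at most 20% mitochondrial UMIs, members with at least 5000 UMIs, and sums without the 3 highest cells per gene) changed 1 choice, except that the limits on UMIs and on CPM were relaxed together in 1 of them. The cause of a move was not tested unless the alternative itself sets it.

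The ratio of the members' share of kept cells, 1.16, was 2.261 with at least 500 genes per barcode, 1.487 with at least 2 Flt3 UMIs and 1.434 with at least 10000 UMIs. The genes measured change with the setting, so each count of genes is given with them. The genes higher and lower in KO members, 173 and 247 of 8479, numbered 45 and 33 of 8479 at 2-fold and 51 and 28 of 3209 at 50 CPM or more. They numbered 292 and 402 of 11946 at 10 UMIs with no minimum CPM and 263 and 140 of 8045 without the 3 highest cells per gene. For Ly6d-negative over Ly6d-positive, KO (80 and 137 of 8420) gave 17 and 19 of 8420, 8 and 19 of 3185, and 171 and 293 of 12116 under the first 3 of these. WT (137 and 188 of 8531) gave 30 and 41 of 8531, 25 and 25 of 3227, and 214 and 288 of 11562. The KO counts were 132 and 233 of 8372 at 5% mitochondrial UMIs. The KO higher count was 126 of 8482 at 20%, 226 of 7114 with Xist only and 122 of 8336 without cells high in G2/M genes. With the cells thinned to 5000 UMIs each the WT counts were 84 and 90 of 4262.

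The following log2 ratios reversed, and the cause was not tested. Between KO and WT, Lypd1 was -0.1237 at 5% mitochondrial UMIs, -0.02878 in the thinned gate, -0.1683 with Xist only and -0.1044 without G2/M cells, and with Y-linked only Il2ra was 0.03338 and Id2 0.04213. For Ly6d-negative over Ly6d-positive in WT, Prss34 was 1.58 in the thinned gate, 2.596 with Y-linked only, 0.08422 with Xist only, 0.8606 without G2/M cells and 0.2714 without the 3 highest cells, and Mcpt8 1.8, 2.736, 0.1339, 0.5427 and 0.1493. S100a4 was 0.09074 in the thinned gate and 0.4206 with Y-linked only, and Smpd3 0.4055 with Xist only. Nol4l was 0.1031 in the thinned gate, 0.4896 with Xist only and 0.7746 without G2/M cells. In KO, Prss34 was 0.02774 in the thinned gate and 0.04685 with Xist only. Mcpt8 was 0.1221 without the highest Scrublet scores, 0.4107 with Y-linked only, 0.1562 without G2/M cells and 0.08065 without the 3 highest cells, where Nol4l was 0.08962, and Hist1h2ai was -0.009988 without G2/M cells.

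Of the other single values 254 moved and 2780 did not. The median log2 ratio of the immediate early and stress list stayed between 0.71 and 0.92 under all 21 alternatives, with 10 to 25 genes higher and at most 1 lower. The 90 WT members under 5000 UMIs limit what a count of 0 for Ly6d can exclude.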

Other observations

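Several lists described nothing beyond single genes between KO and WT members. Of 29 oxidative phosphorylation genes and 14 glycolysis genes none passed the rule of size, with median log2 ratios of -0.05 and -0.14. Of 21 interferon response genes only Irf1, a regulator of interferon genes, was higher (76.4 CPM in KO and 49.9 CPM in WT), of 17 antigen presentation genes only Cd74, H2-Aa and H2-Eb1 were higher, and of 9 recombination genes only Rag1. Of 6 measured E protein and Id genes Hes1 was higher and Id2 lower. Among 13 measured genes around Id2 on chromosome 12, Klf11 (20.2 CPM in KO and 8.83 CPM in WT) and Taf1b (17.8 and 11.6 CPM) were higher, Id2 and Rrm2 were lower, and the median log2 ratio was -0.000694. In the Ly6d-positive cells Klf11 (19.9 and 11.6 CPM) also passed.

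Markers of other cells in the members summed to 142 CPM in KO and 208 CPM in WT for neutrophils (Camp at 0 in both), 116 and 104 CPM for NK cells, 57.0 and 57.8 CPM for monocytes (C1qa at 0 in KO), 80.3 and 90.1 CPM for plasma cells and 37.7 and 45.4 CPM for early B cells outside the gate genes (Pax5 at 0 in both).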
